A study of Mus musculus with 12 samples.

Results

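Doxorubicin carries a ketone side chain and a quinone ring, and the reductases described here act on those groups. The list named 9 genes: the carbonyl reductase genes Cbr1, Cbr2 and Cbr3, the aldo-keto reductase genes Akr1a1 and Akr1b8, the quinone reductase genes Nqo1, Por and Xdh, and Ephx1, which encodes microsomal epoxide hydrolase. All probe sets that carry only 1 gene symbol were taken for each name, older synonyms included, which gave 11 probe sets for 8 of the 9 genes, among 12393 genes in all. No such probe set was matched to Por, the gene of NADPH-cytochrome P450 reductase, so it was not analysed here. The list was drawn up with earlier results of these arrays known: Ephx1 and Cbr2 had been selected on their difference between CP-Dox and PBS. Differences of the listed genes in that comparison are therefore given as a description, without p-values. The further gene and marker lists used below were also chosen with earlier results known, so their p-values are descriptive.

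Each array measured 1 tumour that C26 mouse colon carcinoma cells had formed under the skin of a Balb/c mouse aged 6 weeks, taken 48 h after treatment. The groups were PBS (the control), Dox (free doxorubicin, a drug that intercalates into DNA and poisons topoisomerase II) and CP-Dox (doxorubicin bound to a polypeptide carrier), with 4 mice and 4 arrays in each. Treatment began on day 8 after inoculation, at a tumour size of about 50 mm3, and all 3 groups carried the same tumour line. The labels call the tumours xenografts, but C26 is itself of mouse origin, so tumour and host RNA bind the same probes. No dose was given in the sources used here, and no group received the CP carrier without drug. Levels are log2 values from RMA (1 unit is a doubling), and differences are given ± the standard error of a limma fit over the 12 arrays with n = 4 tumours per group. Each probe set has its own binding strength, so levels were compared between tumours and not from gene to gene. The exception is a rough mark, whether a marker or list gene lay above or below the array median. In a whole tumour, fewer cells of a type and less RNA per cell cannot be told apart.

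As background, carbonyl reductases and aldo-keto reductases use NADPH to turn the side chain ketone of doxorubicin into an alcohol, doxorubicinol, which kills tumour cells less well and has been linked to toxicity in the heart. One-electron reduction of the quinone, by P450 reductase or xanthine oxidoreductase, gives a semiquinone that passes its electron to oxygen. NQO1 transfers a pair of electrons at once and avoids the semiquinone. Epoxide hydrolase opens reactive epoxides to diols and is grouped with these enzymes as a drug-metabolizing enzyme, although the drug itself is no epoxide.

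Some tumours stood apart. The array of CP-Dox replicate 2 was the least like its own group (mean Pearson correlation 0.956, beside 0.976 to 0.991 for the other 11 arrays). Keratinocyte and skin markers (14 measured) were on average 2.51 and 3.75 above the PBS mean in CP-Dox replicates 1 and 3, and at most 0.14 above it in the other arrays. Skeletal muscle markers (14 measured) ranged from -2.84 to 3.68 around the PBS mean. They exceeded it by 1.75 or more in 5 tumours (replicates 3 and 4 of PBS and of CP-Dox, and replicate 2 of Dox). These PBS tumours, with list means of 11.53 and 9.74, raised the PBS mean itself. The other PBS and Dox tumours had list means of 5.01 to 5.14, whereas CP-Dox replicates 1 and 2 were at 7.37 and 8.52. Every CP-Dox tumour thus lay above that low level, but only some PBS and Dox tumours did, so muscle signal was uneven between groups. Of 13 markers of colon epithelium measured, Krt8, a keratin of simple epithelia, lay above the array median in every array, whereas 9, Cdx2 and Vil1 among them, did so in none.

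Ephx1 and Xdh were higher and Cbr2 was lower in CP-Dox tumours than in PBS tumours, whereas the other 5 measured genes differed by at most 0.32 on the log2 scale. These 3 genes were past the threshold of an adjusted p under 0.05, where 5.58% of all genes were, and nothing is read from that count because this comparison chose members. Groups without any overlap were found for 4 of the 8 genes, against 12.1% of all genes, and for the same reason nothing is read from that share. In Dox against PBS none of the 8 passed, as was the case for 0% of all genes, and 1 of the 8, Ephx1, had an unadjusted p under 0.05 in the limma fit, against 558 of 12393 genes. The median difference of the 8 genes was 0.23 in CP-Dox against PBS and 0.09 in Dox against PBS, beside -0.04 and 0.0046 over all genes. The comparisons share control tumours and CP-Dox against PBS chose members, so these values are set side by side only.

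**Figure D1:**
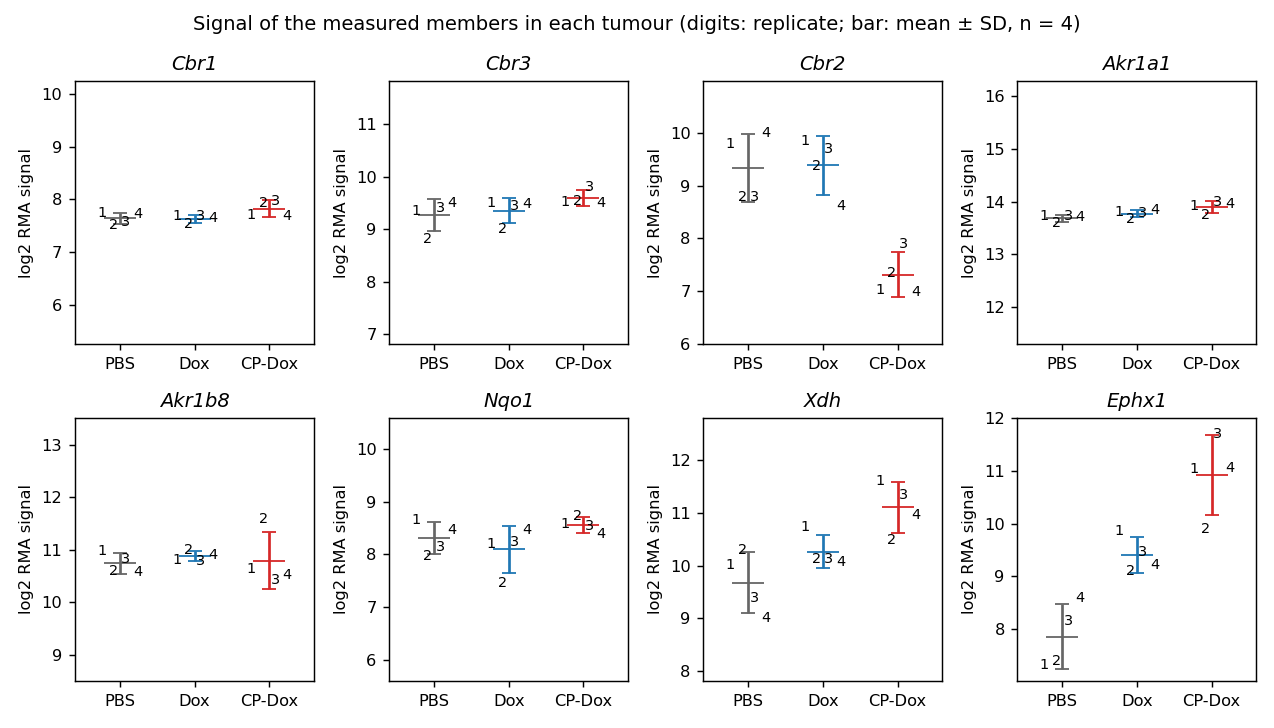
Log2 RMA signal (vertical axis, 5 log2 units high in every panel) of the 8 measured genes in the 4 tumours of each group. Digits give the replicate number and bars the mean ± SD. Ephx1 is lowest in PBS and highest in CP-Dox without overlap, Cbr2 is low in the 4 CP-Dox tumours only, and the panels of Cbr1, Cbr3 and Akr1a1 are nearly flat at this scale.

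Cbr1 encodes the main cytosolic carbonyl reductase, which reduces doxorubicin and many other ketones and quinones. Its signal was 7.74, 7.52, 7.58 and 7.73 in PBS replicates 1 to 4, 7.69, 7.53, 7.69 and 7.64 in Dox, and 7.70, 7.94, 7.98 and 7.68 in CP-Dox. CP-Dox replicates 2 and 3 lay above all other tumours, while replicates 1 and 4 lay among the controls. The difference was 0.18 ± 0.09 from PBS in CP-Dox and -0.01 ± 0.09 in Dox (limma adjusted p = 0.997 for Dox), with a 95% confidence interval of -0.21 to 0.20 for Dox. A change in Cbr1 after free drug larger than these bounds lies outside the interval.

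Cbr3 is a close relative of Cbr1 and its neighbour on chromosome 16, with 1 other annotated gene, Gm5678, between them in the RefSeq annotation of GRCm38.p6. Its enzyme reduces fewer carbonyl compounds. Cbr3 was at 9.35, 8.82, 9.41 and 9.49 in PBS, 9.49, 9.01, 9.44 and 9.48 in Dox, and 9.52, 9.53, 9.81 and 9.49 in CP-Dox. PBS replicate 2 and Dox replicate 2 were low, CP-Dox replicate 3 was high, and the other 9 tumours lay within 9.35 to 9.53. The difference from PBS was 0.32 ± 0.16 in CP-Dox and 0.09 ± 0.16 in Dox (limma adjusted p = 0.995 for Dox). Without PBS replicate 2 these were 0.17 ± 0.13 and -0.06 ± 0.13, and without Dox replicate 2 the Dox difference was 0.20 ± 0.15. Whether probes of Cbr1 and Cbr3 bind both transcripts was not tested.

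Cbr2 encodes another carbonyl reductase, a tetrameric enzyme best known from mouse lung. Its signal was 9.79, 8.79, 8.79 and 10.00 in PBS and 9.86, 9.38, 9.70 and 8.61 in Dox. In CP-Dox it was 7.02, 7.35, 7.90 and 6.98. Every CP-Dox tumour lay below all 8 others, and the PBS and Dox tumours overlapped throughout. The group means were 9.34 ± 0.64 (SD, n = 4) for PBS, 9.39 ± 0.56 for Dox and 7.31 ± 0.43 for CP-Dox, so that CP-Dox was lower than PBS by 4.09-fold (log2 difference -2.03 ± 0.35). Dox differed from PBS by 0.04 ± 0.35 (limma adjusted p = 0.995), with a confidence interval of -0.72 to 0.80.

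Between the drug forms, Cbr2 was lower in CP-Dox than in Dox by 4.20-fold (-2.07 ± 0.35, limma adjusted p = 0.0499). It was the only 1 of the 8 genes past the threshold there, where 0.226% of all genes were, and Cbr2 and Ephx1 were the 2 without overlap, against 9.63% of all genes. This comparison shares its CP-Dox tumours with the one that chose Cbr2 and is no separate support. The call was at the threshold and was lost in 15 of 26 alternative fits, with an adjusted p of 0.0771 when the replicate number was a block and 0.597 without CP-Dox replicates 1 and 3. The size of the difference ranged from -2.33 to -1.91 over all these fits.

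Cbr2 is also a known marker of tissue-resident macrophages, so a list of 10 measured markers of those cells was set beside it. The list mean was 0.15 to 0.73 below the PBS mean in CP-Dox tumours, by -0.55, -0.73, -0.41 and -0.15, and ran from -0.44 to 0.44 in PBS and from -0.25 to 0.53 in Dox. The groups overlapped, and 7 of the 10 markers were lower in CP-Dox than in PBS with 0 past the threshold in limma and 4 with an unadjusted p under 0.05. Cd163, a haemoglobin scavenger receptor gene, was at 6.32, 6.31, 4.65 and 5.56 in CP-Dox, at 7.91, 8.46, 7.19 and 6.96 in Dox, and at 8.88, 7.21, 6.65 and 6.99 in PBS. It had no overlap between CP-Dox and either other group, and differed from PBS by -1.73 ± 0.52 (limma adjusted p = 0.0799). Mrc1, the mannose receptor gene, differed by -0.52 ± 0.23 (limma adjusted p = 0.201). The 3 markers that were higher in CP-Dox, named after their values were seen, were Clec10a (0.60 ± 0.36), F13a1 (0.07 ± 0.44) and Gas6 (0.03 ± 0.24). General macrophage and monocyte markers (11 measured) were at -0.01, -0.58, 0.51 and 0.51 in CP-Dox and overlapped with both groups. Scgb1a1 and Sftpc, markers of lung epithelium, stayed between 4.50 and 5.47 in all arrays. The part of macrophage number in the Cbr2 difference was not tested.

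Akr1a1 encodes aldehyde reductase, an aldo-keto reductase that also forms doxorubicinol. It had 4 probe sets, and the brightest one was at 13.73, 13.59, 13.73 and 13.70 in PBS, 13.80, 13.67, 13.78 and 13.84 in Dox, and 13.92, 13.74, 13.99 and 13.96 in CP-Dox. CP-Dox lay above PBS without overlap, although CP-Dox replicate 2 was next to PBS replicates 1 and 3. The difference from PBS was 0.22 ± 0.08 in CP-Dox and 0.09 ± 0.08 in Dox (limma adjusted p = 0.995 for Dox). Over the 4 probe sets the CP-Dox difference was 0.13 to 0.22. Another probe set also had no overlap, but in the other 2 CP-Dox replicate 2 lay within the PBS range, at 12.27 and 12.87. Without CP-Dox replicate 2, the lowest of its group in Akr1a1, the difference was 0.27 and the gene passed the threshold. In that fit 2363 of 12393 genes passed.

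Akr1b8 encodes an aldose reductase-like protein, relative of the human AKR1B10. Its signal was 10.98, 10.59, 10.83 and 10.57 in PBS, 10.81, 11.00, 10.79 and 10.90 in Dox, and 10.63, 11.59, 10.43 and 10.53 in CP-Dox. CP-Dox replicate 2 was the highest of the 12 tumours, and the other 3 CP-Dox tumours lay at 10.63 or below. The group difference was 0.05 ± 0.22 with all tumours and -0.21 without CP-Dox replicate 2, so its sign rested on that tumour. Dox differed from PBS by 0.13 ± 0.22 (limma adjusted p = 0.995), and CP-Dox from Dox by -0.08 ± 0.22 (limma adjusted p = 0.880).

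Nqo1, the classical target of the NRF2 stress response pathway, was at 8.65, 7.97, 8.14 and 8.47 in PBS, 8.20, 7.46, 8.24 and 8.47 in Dox, and 8.58, 8.73, 8.54 and 8.38 in CP-Dox. The CP-Dox tumours were closest together, and Dox replicate 2 was the lowest of all. Nqo1 differed from PBS by 0.25 ± 0.21 in CP-Dox and by -0.22 ± 0.21 in Dox (limma adjusted p = 0.995 for Dox). CP-Dox exceeded Dox by 0.47 ± 0.21 with an interval of 0.01 to 0.92, which did not pass over all genes (limma adjusted p = 0.305). Both values that involve Dox rested on Dox replicate 2: without it CP-Dox exceeded Dox by 0.25 ± 0.16, and Dox differed from PBS by -0.0065 ± 0.16. The difference between CP-Dox and PBS was 0.14 ± 0.22 without PBS replicate 2.

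Xdh encodes xanthine oxidoreductase, which makes uric acid from hypoxanthine and xanthine and can pass single electrons to doxorubicin. It was at 10.02, 10.29, 9.39 and 9.01 in PBS, 10.73, 10.13, 10.12 and 10.07 in Dox, and 11.61, 10.49, 11.35 and 10.97 in CP-Dox. All CP-Dox tumours lay above all PBS tumours, but CP-Dox replicate 2 lay below Dox replicate 1. The group means were 9.68 ± 0.58 (SD, n = 4), 10.26 ± 0.31 and 11.11 ± 0.49 for PBS, Dox and CP-Dox. CP-Dox exceeded PBS by 2.69-fold (1.43 ± 0.30), Dox exceeded PBS by 0.59 ± 0.30 (limma adjusted p = 0.995; 0.36 without PBS replicate 4), and CP-Dox exceeded Dox by 0.84 ± 0.30 (limma adjusted p = 0.223).

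The Xdh difference from PBS was 1.26, 1.35 and 1.33 without CP-Dox replicate 1, CP-Dox replicate 3 or PBS replicate 3, and it then missed the threshold. Xdh also passed in CP-Dox against Dox when CP-Dox replicate 2, the lowest of its group in Xdh, was left out, at 1.05 (limma adjusted p = 0.0475). In that fit 1150 of 12393 genes passed. Over the 26 alternative fits the Xdh difference between CP-Dox and Dox ran from 0.47 to 1.05. The tumours with skin markers held the highest Xdh signals, and without both of them the difference from PBS was 1.06 ± 0.34. Capillary endothelium and fat cells are known to express Xdh. Endothelial markers (10 measured) were 0.54 to 0.68 above the PBS mean in the CP-Dox tumours, at -0.03 to 0.31 in Dox and at -0.29 to 0.17 in PBS, and 3 of them rose, Pecam1 by 1.02 ± 0.15 (limma adjusted p = 0.00502). Adipocyte markers (8 measured) were at 0.38 to 0.86 in CP-Dox and -0.32 to 0.36 in PBS, and 3 of them rose. In Dox they were at -0.16, 0.13, -0.09 and 0.86. Dox replicate 4, with the 0.86, had the lowest Xdh signal of its group, at 10.07 beside 10.12 in replicate 3. Of the 8 adipocyte markers, 2 lay above the array median in every array and 4, Adipoq among them, in none. The part of either cell type in the Xdh difference was not tested.

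Ephx1 showed the largest difference of the 8 genes and ordered the groups. Its signal was 7.31, 7.38, 8.14 and 8.58 in PBS. In Dox it was 9.86, 9.09, 9.45 and 9.21. In CP-Dox it was 11.04, 9.89, 11.71 and 11.05. All PBS tumours lay below all Dox tumours, and all Dox tumours below all CP-Dox tumours, with Dox replicate 1 and CP-Dox replicate 2 almost level. The means were 7.85 ± 0.61 (SD, n = 4), 9.40 ± 0.34 and 10.92 ± 0.76, so that the steps from PBS to Dox and from Dox to CP-Dox were 1.55 ± 0.38 and 1.52 ± 0.38. With the means of skin and muscle markers as covariates they were 1.69 ± 0.33 and 0.81 ± 0.41, and without CP-Dox replicates 1 and 3, the tumours with skin markers, they were 1.55 ± 0.34 and 1.07 ± 0.42.

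Free drug gave an Ephx1 signal 2.93-fold that of PBS, with an interval of 0.73 to 2.37 for the log2 difference. It ranked 11 of 12393 genes by size in Dox against PBS, and was the 1 member without overlap there, against 3.84% of all genes. Its limma adjusted p was 0.995, in a comparison where no gene did, and it shares the PBS tumours with the comparison that chose it. CP-Dox exceeded Dox by 2.87-fold (limma adjusted p = 0.111). This comparison shares its CP-Dox tumours with the one that chose Ephx1 and is no separate support. Ephx1 passed there when CP-Dox replicate 2, the lowest of its group at 9.89, was left out, at 1.87 (limma adjusted p = 0.0101). In that fit 1150 of 12393 genes passed. Over the 26 alternative fits the Ephx1 difference between CP-Dox and Dox ran from 0.81 to 1.87. CP-Dox exceeded PBS by 8.41-fold (3.07 ± 0.38).

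Markers of other cell types also differed between tumours, and did not follow these values in every one. Mast cell markers (9 measured) were 1.64, 1.08, 1.68 and 1.46 above the PBS mean in the CP-Dox tumours, at 0.09, 0.25, -0.27 and 1.04 in Dox, and at -0.42 to 0.26 in PBS. In CP-Dox against PBS 8 of the 9 rose, among them the mast cell protease genes Cpa3 by 1.61 ± 0.35 (limma adjusted p = 0.0242) and Mcpt4 by 1.85 ± 0.36 (limma adjusted p = 0.0169). As with Ephx1 and Xdh, the CP-Dox tumour with the lowest value was replicate 2. The part of mast cells in the differences of Ephx1, Xdh and Cbr2 was not tested. In the CP-Dox tumours, the skin marker means of 2.51, 0.14, 3.75 and -0.15 stood beside Ephx1 signals of 11.04, 9.89, 11.71 and 11.05. Without CP-Dox replicates 1 and 3, Ephx1 differed from PBS by 2.62 ± 0.42 and Cbr2 by -2.18 ± 0.43, and neither passed the threshold with 2 CP-Dox tumours left. With the marker covariates, Ephx1 differed from PBS by 2.50 ± 0.38 and Cbr2 by -2.26 ± 0.45. The PBS tumours with the highest Ephx1 signals, replicates 3 and 4, had muscle markers, as did replicate 2 of Dox, the Dox tumour with the lowest.

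**Figure D2:**
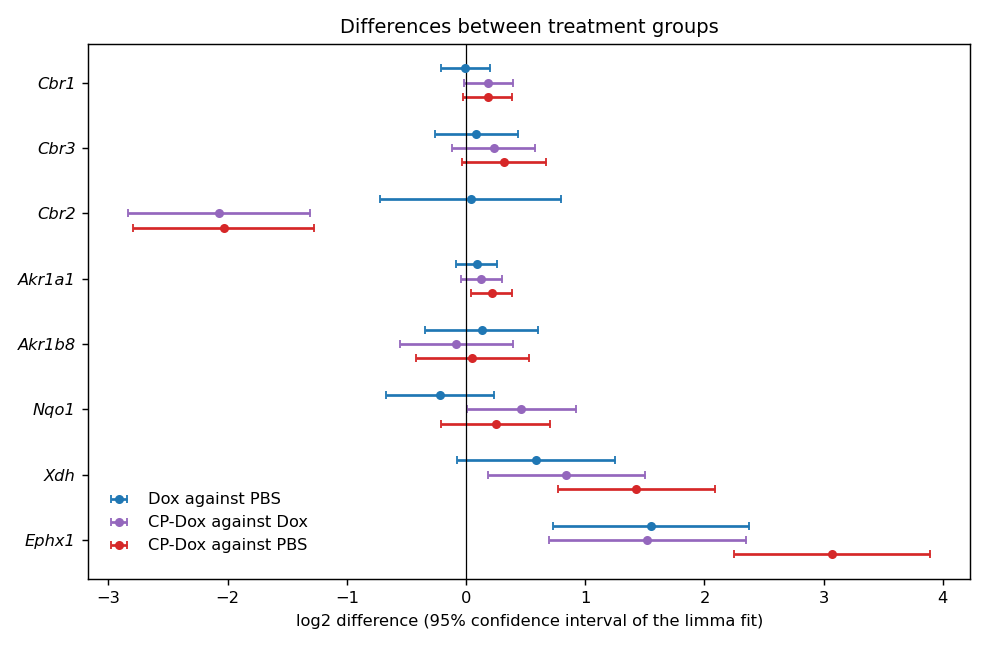
Log2 differences between groups (horizontal axis) with 95% confidence intervals of the limma fit for the 8 measured genes, one colour per comparison. The intervals of Ephx1 lie above 0 in all 3 comparisons. Those of Cbr2 lie near -2 where CP-Dox is compared with either other group and around 0 for Dox against PBS. Most other intervals cover 0. CP-Dox against PBS chose Ephx1 and Cbr2, and each other comparison shares tumours with it. The intervals of these genes are therefore descriptions and not separate tests.

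**Figure D3:**
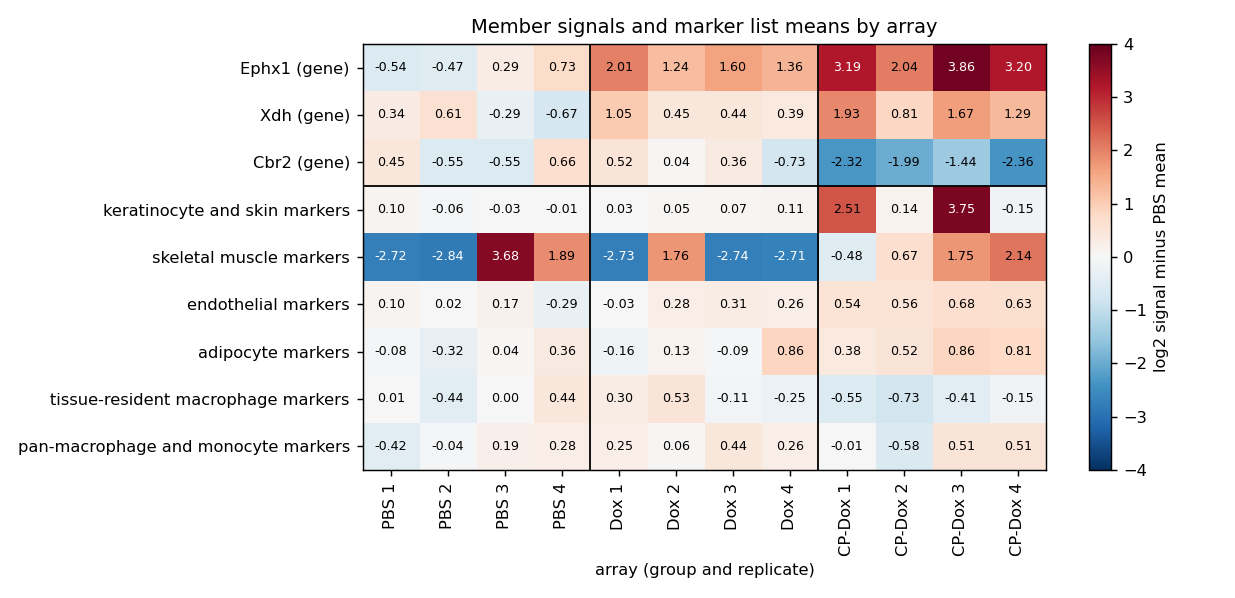
Signals of Ephx1, Xdh and Cbr2 and the means of 6 marker lists in each of the 12 arrays, as log2 difference from the PBS mean (colour and printed value). Skin markers are raised in CP-Dox replicates 1 and 3 alone, Ephx1 is raised in all 4 CP-Dox tumours, and resident macrophage markers are lowest in CP-Dox replicate 2, at -0.73.

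The genes with the profile nearest to Ephx1 were found by the root mean square difference over the 12 arrays, after each gene was centred on its mean. Trp53inp1, a p53 target, was nearest at 0.36 log2 units, whereas the profile of Ephx1 itself varied by 1.36. Ccng1, the cyclin G1 gene and another p53 target, followed at 0.61, then Dglucy at 0.67, the lipoprotein receptor gene Vldlr at 0.67 and the annexin gene Anxa8 at 0.70. Side by side, Dox and CP-Dox exceeded PBS by 1.55 and 3.07 in Ephx1, by 1.14 and 2.51 in Trp53inp1, and by 0.94 and 1.72 in Ccng1. In these 3 genes and Dglucy, CP-Dox replicate 3 was the highest tumour and CP-Dox replicate 2 the lowest CP-Dox tumour. Vldlr was instead highest in CP-Dox replicate 1, at 11.73 beside 11.66 in replicate 3. Anxa8 had its lowest CP-Dox value in replicate 4, at 8.4 beside 8.51 in replicate 2. All these genes were chosen for their likeness to Ephx1 over the same arrays. Shared high and low tumours are therefore built into the choice. A part of p53 in the Ephx1 difference was not tested.

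For Cbr2 the nearest profile was that of Npl, which encodes N-acetylneuraminate pyruvate lyase, at 0.37 log2 units, beside a spread of 1.08 in Cbr2 itself. Npl was at 6.65, 7.36, 7.50 and 6.31 in CP-Dox, 8.91, 8.53, 8.33 and 7.91 in Dox, and 8.96, 8.10, 7.88 and 8.72 in PBS. It shared with Cbr2 the low values in all CP-Dox tumours and the overlap of PBS with Dox. Ung, the uracil-DNA glycosylase gene, followed at 0.54, the cyclin E2 gene Ccne2 at 0.61, the phosphatase gene Mtm1 at 0.64 and Dctpp1 at 0.66. Of these, Npl was 0.00 from PBS in Dox, whereas Mtm1 and Dctpp1 were at -0.52 and -0.54 there. Likeness over 12 arrays in 3 groups mostly reflects the group differences.

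**Figure D4:**
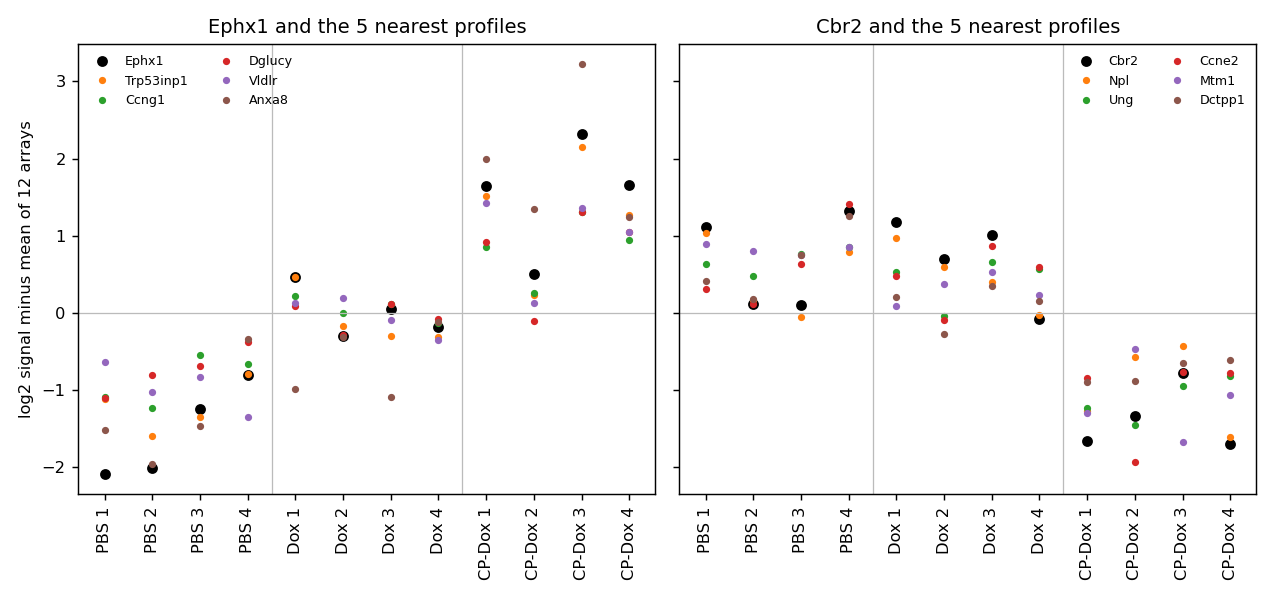
Log2 signal of Ephx1 (left) and Cbr2 (right), both in black, and of the 5 genes with the nearest profile, each centred on its mean over the 12 arrays (horizontal axis, by group and replicate). The Ephx1 group steps up from PBS to Dox to CP-Dox, and the Cbr2 group drops in the 4 CP-Dox arrays.

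The promoters of Ephx1 and Cbr2, the genes with the largest differences, and of the paralogues Cbr1 and Cbr3 are shown as the 120 bases before the RefSeq transcript start in GRCm38.p6. They lie at chr1:181017570-181017689 and chr11:120732022-120732141 (both minus strand), and at chr16:93607717-93607836 and chr16:93683099-93683218 (both plus strand), and are written 5′ to 3′ on the gene's strand. Capitals mark the core of the xenobiotic response element, GCGTG or its complement.
Ephx1: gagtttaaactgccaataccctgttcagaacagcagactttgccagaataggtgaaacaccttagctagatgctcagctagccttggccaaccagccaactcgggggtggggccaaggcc
Cbr2: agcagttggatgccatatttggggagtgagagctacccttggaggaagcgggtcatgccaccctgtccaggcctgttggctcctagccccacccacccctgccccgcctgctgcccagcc
Cbr1: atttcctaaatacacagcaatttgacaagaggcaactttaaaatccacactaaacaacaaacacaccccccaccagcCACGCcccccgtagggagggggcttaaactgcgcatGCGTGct
Cbr3: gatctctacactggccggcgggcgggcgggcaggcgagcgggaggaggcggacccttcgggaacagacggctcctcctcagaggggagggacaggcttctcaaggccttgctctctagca
Promoters were available for 8 of the 9 genes, Por among them, but not for Xdh, which was not searched. In windows of 250 bases before to 50 after the start, searched on both strands, GCGTG was present in 3 of the 8 (Cbr1, Akr1b8 and Por) and in 32.4% of all 32851 windows. In Cbr1 it began 43 and 7 bases before the start, in the stretch where Cbr3 had none. The core of the antioxidant response element, TGACNNNGC, was present in 0 of the 8 and in 12.4% of all windows. These are matches of letters within short windows and no test of binding.

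Other genes of the same reactions were counted from 5 lists, which were chosen with earlier results of these arrays known. Their counts in CP-Dox against PBS stand beside 5.58% of all genes past the threshold and 2914 of 12393 with an unadjusted p under 0.05, and those without CP-Dox replicate 2 beside 2363 of 12393 past the threshold in that fit. Of 19 other carbonyl and aldo-keto reductase genes measured, 1 rose and none fell in CP-Dox against PBS, with a median of 0.11. This was Dcxr, the gene of dicarbonyl and L-xylulose reductase, a short-chain dehydrogenase like the Cbr enzymes. Dcxr was at 8.00, 7.65, 7.90 and 8.49 in PBS, 8.61, 7.81, 8.53 and 8.18 in Dox, and 9.64, 8.41, 10.26 and 9.58 in CP-Dox, where replicate 2 lay within the PBS range. It rose by 1.46 ± 0.34 (2.76-fold, limma adjusted p = 0.0313), the opposite direction to Cbr2. Its adjusted p was 0.0684 to 0.0909 without CP-Dox replicate 1, 3 or 4 or PBS replicate 1, 2 or 3, and its difference was 0.99 without both tumours with skin markers. Next came Hsd11b1, the gene of a steroid reductase that also reduces drug carbonyls, differed by 0.94 ± 0.25 (limma adjusted p = 0.0511). Of the 19, 4 rose when CP-Dox replicate 2 was left out.

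Of 14 other genes of quinone-reducing enzymes, 0 passed in CP-Dox against PBS in limma, 4 had an unadjusted p under 0.05, and 12 were lower, with a median of -0.16. The lowest p was that of Cyb5r1, a cytochrome b5 reductase gene, at -0.35 ± 0.10 (limma adjusted p = 0.0625). Of the 14, 3 fell when CP-Dox replicate 2 was left out. Of 18 further epoxide hydrolase, P450 and xenobiotic receptor genes 0 passed and 5 had an unadjusted p under 0.05, with a median of 0.15, and 2 rose without CP-Dox replicate 2. The lowest p was that of Cyp1b1, a P450 induced through the aryl hydrocarbon receptor, at 1.32 ± 0.40 (limma adjusted p = 0.0773). Cyp1b1 lay below the array median in every array, at 4.80 to 7.67. The same held for 15 of the 18 genes, Cyp1b1 included.

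Nqo1 belongs to the NRF2 pathway, in which NRF2 induces reductase and glutathione genes under electrophile stress. Of 26 other NRF2 pathway genes, 1 rose and none fell in CP-Dox against PBS, with a median of 0.02. It was Bach1, a repressor of NRF2 targets, which rose by 0.44 ± 0.10 (limma adjusted p = 0.0340). Bach1 was at 9.97, 9.90, 9.99 and 10.19 in CP-Dox and at 9.77, 9.52, 9.57 and 9.45 in PBS. Its adjusted p was 0.0541 with arrays centred on their medians and 0.0540 to 0.0874 without CP-Dox replicate 1, 3 or 4, Dox replicate 3 or PBS replicate 2, 3 or 4. Without CP-Dox replicate 2, 3 of the 26 rose and 2 fell. The list mean was 0.09 to 0.10 above the PBS mean in the CP-Dox tumours, within the PBS range of -0.07 to 0.09 or 0.01 past it.

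Xdh ends purine breakdown, and of 10 other genes of that route 1 rose and none fell in CP-Dox against PBS, with a median of 0.19. It was Ampd3, the gene of an AMP deaminase, which rose by 0.82 ± 0.22 (limma adjusted p = 0.0476). Its call was lost in 17 of 26 alternative fits, with differences from 0.68 to 0.99. Gda, the guanine deaminase gene, differed by 0.96 ± 0.26 (limma adjusted p = 0.0548). Of the 10, 4 rose when CP-Dox replicate 2 was left out. In Dox against PBS none of the genes of these 5 lists passed, nor did any in CP-Dox against Dox. Without CP-Dox replicate 2, when 1150 of 12393 genes passed in CP-Dox against Dox, calls there were 2 up and 1 down in the NRF2 list, 1 up in the epoxide and P450 list, 2 up in the carbonyl reductase list, 2 down in the quinone list and 3 up in the purine list. None of the list genes passed in CP-Dox against PBS without CP-Dox replicate 1, 3 or 4, without PBS replicate 2, or with the marker means as covariates.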

How the data were processed

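Gene expression was measured in 12 C26 tumours with Affymetrix mouse arrays, 1 array per tumour, in 3 groups of 4 taken from the sample titles. The series table as deposited holds log2 signals. RMA and Partek are named in the submitters' processing notes, without versions or settings. Array medians were 7.11 to 7.23, and the values were used without further normalization.

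Of 22690 probe sets, 64 controls, 691 with several symbols and 1555 with none were left out, and 20380 stood for 12393 genes. A gene was represented by its probe set with the highest mean. Symbols came from the platform annotation, and 20351 identifiers were found in the RefSeq table. One model with a mean per group was fitted over the 12 arrays with limma 3.58.1 in R 4.3.3, with two-sided tests. Benjamini-Hochberg adjustment covered all 12393 genes, and genes with an adjusted p under 0.05 were called. The fit was checked on simulated data. Replicates are separate mice per the titles.

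The members and lists were chosen with earlier results of these data known. Named are all members, list genes past the threshold (the lowest p where none passed; a few further ones, Hsd11b1, Gda, Clec10a, F13a1, Gas6, Pecam1, Scgb1a1 and Sftpc, were named after their values were seen), the first markers of lists a result turns on, and the 5 nearest profiles of Ephx1 and Cbr2. The alternatives were other normalizations, probe set rules, variance models, weights, sample sets, a replicate block, a stricter threshold, marker covariates and leaving out arrays. Precision is limited by the number of arrays, with a median standard error of 0.13 for a difference.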

Additional observations from a re-analysis of the deposited data

Results flagged for a closer look

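Within groups of 4 tumours, 3 single values lay far from the other 3. Cbr3 was at 9.81 in CP-Dox replicate 3, where the next tumour was at 9.53, and this is a tumour with skin markers. Cbr3 was at 9.01 in Dox replicate 2, where the next was at 9.44, and this is a tumour with muscle markers. Xdh was at 10.73 in Dox replicate 1, where the next was at 10.13. Chance alone flags about 1 in 20 groups, and 24 groups were looked at.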

How the results depend on the processing

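In CP-Dox against PBS, 3 genes were past the threshold and 2 to 4 were in all alternatives but 2: there were 0 without CP-Dox replicates 1 and 3 together and 1, Ephx1, with marker means as covariates. In CP-Dox against Dox, 1 gene was past the threshold, and there were 3 with array weights and 0 with the probe set of largest variance, robust variance, only the compared groups, the replicate block, an adjusted p under 0.01, CP-Dox replicates 1 and 3 left out, or marker covariates; without single replicates there were 0 to 3. In Dox against PBS there were 0 throughout. Ephx1 and Cbr2 kept their direction in CP-Dox against PBS in all 26 alternatives, at 2.50 to 3.42 and -2.26 to -1.81. That comparison chose both genes and the fits reuse the same arrays, so this is no separate support for the differences. No called difference changed sign, and 18 values that were never called did. Leaving out the doubted tumours leaves fewer samples; for other lost calls the cause was not tested.

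Over all genes, 691 changed in CP-Dox against PBS, compared with 198 with the compared groups alone, 2665 with array weights, 143 at an adjusted p under 0.01, 1099 with every probe set tested and 214 to 2363 without single replicates. They were 2 without CP-Dox replicates 1 and 3 and 44 with marker covariates. In CP-Dox against Dox 28 changed, against 0 with the compared groups alone or without CP-Dox replicates 1 and 3, 1 at an adjusted p under 0.01 or with marker covariates, 9 with the probe set of largest variance, 15 with robust variance, 44 and 47 with another quantile normalization and without dim genes, 1960 with array weights, and 1 to 1150 without single replicates. Deviations of same-numbered tumours correlated at -0.31 to 0.51, with 8 of 12 correlations over 0.1 and at least 1 under it in each comparison, and 6 of 12 tumours correlated best with their own number. These values do not settle whether same-numbered tumours shared a condition, and the main fit did not take the replicate numbers as pairs. With the replicate block, 995 and 8 genes changed in CP-Dox against PBS and against Dox, and 3 and 0 members.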
